A study of Mus musculus with 6 samples.

Results

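The genes described here encode the NF-kappaB transcription factor subunits and the proteins that hold them in check, in a cultured line of mouse group 2 innate lymphoid cells (ILC2s). A list of 10 genes was taken by symbol: the subunit genes Nfkb1, Nfkb2, Rel, Rela and Relb, and the inhibitor genes Nfkbia, Nfkbib, Nfkbie, Nfkbiz and Tnfaip3. Of these, 9 were matched to a probe set among 23185 genes with a symbol, 1 probe set each, and Nfkb1 was not analysed here. All samples were an ILC2 line of C57BL/6J origin that was cultured with IL-33 and IL-2 (10 ng/ml), received the LentiV2CRISPRGFP lentivirus and was sorted for GFP on day 6 after transduction. The 3 arrays labelled Myc knockout came from cells given a guide RNA against Myc, and the 3 control arrays from cells given a non-target guide. IL-33, the cytokine that drives NF-kappaB in these cells, was thus present in both groups. The labels mention no picking of clones and no separate cultures behind replicates, so the p-values reflect the variation among these 6 arrays alone, which may be technical.

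NF-kappaB proteins are dimers of related subunits that wait in the cytoplasm, bound by IkappaB proteins. IL-33 binding to its receptor recruits the adaptor MyD88 and IRAK kinases, the ubiquitin ligase TRAF6 and then the IkappaB kinases, which mark IkappaB for degradation and free the dimers to enter the nucleus. Many genes of the system are themselves NF-kappaB targets, among them Nfkbia and Tnfaip3, so their mRNA forms part of a negative feedback and is often read as a trace of recent NF-kappaB activity. In ILC2s this pathway, together with others, leads to IL-5 and IL-13 secretion.

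The promoters of several of these genes carry the site that NF-kappaB binds, and the sequences below show where. Promoters of 300 bases, 250 before and 50 after a transcript start, were taken from RefSeq (GRCm38.p6) for 7 of the 9 genes. The kappaB consensus motif of 10 bases was searched on both strands, and overlapping matches were counted. It was found in at least 1 promoter of 5 of these 7 genes (Nfkb2, Rel, Nfkbia, Nfkbie and Tnfaip3), against 5.14% of the 27025 genes in the table and 4.51% of its 32851 promoters. The E-box CACGTG, the site of MYC bound to its partner MAX, was found in 1 of the 7 genes, Tnfaip3, against 8.09% of the genes and 7.15% of the promoters in the table. The sequences of those 5 genes are printed with that of Tnip3, a gene of the pathway whose mRNA rose. Capitals mark the kappaB matches, and positions count from the base before the transcript start as −1.
Nfkb2 (1 of 3 promoters, chr19:46304689-46304718, plus strand, first match at −39): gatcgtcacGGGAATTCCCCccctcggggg
Rel (chr11:23771031-23771081, minus strand, first match at −92): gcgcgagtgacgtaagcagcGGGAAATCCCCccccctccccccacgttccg
Nfkbia (chr12:55492648-55492696, minus strand, match at −29): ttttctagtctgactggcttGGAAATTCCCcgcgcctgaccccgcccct
Nfkbie (chr17:45555574-45555623, plus strand, match at −106): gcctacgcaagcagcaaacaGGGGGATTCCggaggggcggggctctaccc
Tnfaip3 (1 of 2 promoters, the other with no match to either motif, chr10:19015411-19015555, minus strand, matches at −125 and −12): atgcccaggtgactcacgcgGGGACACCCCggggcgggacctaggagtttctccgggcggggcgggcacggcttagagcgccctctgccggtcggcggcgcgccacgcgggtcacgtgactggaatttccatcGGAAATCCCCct
Tnip3 (chr6:65590324-65590373, plus strand, match at −54): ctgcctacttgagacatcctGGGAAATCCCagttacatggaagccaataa
The match in Tnip3, GGGAAATCCC, is also the first match in Rel. The E-box of Tnfaip3 starts at −33, between its 2 kappaB matches. A match is a description of the sequence and says nothing of binding in these cells.

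Values below are log2 RMA values, which are relative to the other arrays and show no level of 1 gene against another. Differences are arrays labelled Myc knockout minus control, ± SE, and a gene passed at limma's Benjamini-Hochberg adjusted p under 0.05 over all 23185 genes. Array medians lay between 3.35 and 3.38 in the arrays labelled Myc knockout and between 3.32 and 3.35 in controls, and the SD of differences between arrays of a group, averaged per array, was 0.230 to 0.237 in the arrays labelled Myc knockout and 0.201 to 0.206 in controls. Myc itself had values of 9.55, 9.79 and 9.73 in the arrays labelled Myc knockout, against 9.27, 9.33 and 9.39 in controls, which goes against the label as far as mRNA can show a guide's effect (log2 difference 0.36 ± 0.080, limma's adjusted p = 0.127; exact two-sided permutation p = 0.1, the smallest that 3 against 3 arrays allow). Every direction below therefore rests on the labels. Of 11 measured ILC2 markers, 9 had means above every array median, Gata3, Il7r and Il2ra among them, while Thy1 lay near those medians and Il17rb near the lower quartiles. Markers of other cells with means above the medians were 3 of 8 for T cells, 1 of 5 for B cells, 2 of 6 for NK cells and ILC1s, 0 of 4 for ILC3s, 1 of 5 for myeloid cells and 2 of 5 for mast cells and basophils. The T cell markers above were Cd3g, Cd8a and Lat, while Cd3e, Cd3d, Cd4, Cd5 and Cd8b1 lay below. The others above were Pax5, Prf1, Gzma, Itgam, Mcpt8 and Cma1. Among these markers of other cells above the medians, groups did not overlap for Cd3g (−0.43 ± 0.13), Mcpt8 (−0.47 ± 0.14), Gzma (0.33 ± 0.099) and Itgam, given below. None of these passed. Among ILC2 markers they did not overlap for Gata3 (−0.25 ± 0.066), Il7r (−0.22 ± 0.076), Icos (0.16 ± 0.057), Il2ra (0.19 ± 0.059) and Il13 (0.23 ± 0.095). These did not pass either, and Il5 is given below. Of the dimmer markers, Ms4a2 (0.23 ± 0.063, not passing) and Il17a had groups apart. Of all genes, 10.6% were lower and 9.25% higher without overlap. The mean level of the ILC3 list was 2.03 to 2.12 in the arrays labelled Myc knockout and 1.73 to 1.82 in controls. That of the myeloid list was 3.0 to 3.21 in the arrays labelled Myc knockout and 3.20 to 3.28 in controls. Within these lists only Il17a and Itgam had groups that did not overlap. Il22, Il23r and Ccr6 of the ILC3 list, and Cd14, Csf1r, Adgre1 and Itgax of the myeloid list, had overlapping groups, so each list mean leans on 1 gene. Of the markers, Il17a of the ILC3 list rose by 0.95 ± 0.11 and Il5 of the ILC2 list by 0.49 ± 0.060 (limma's adjusted p = 0.0353 and 0.0386), and both calls were lost without any 1 array and with a replicate block, that of Il5 also under median centring. Itgam of the myeloid list differed by −0.63 ± 0.10 without passing (limma's adjusted p = 0.0767). The part of such cells in the results was not tested. In total RNA of a cell population, fewer cells of a type and less RNA per cell cannot be told apart.

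No NF-kappaB subunit or inhibitor gene passed the test. Of the 9 genes, 0 passed over all genes, where 0.453% of all genes did, and 0 had an unadjusted p under 0.05 in limma, where 6.97% of all genes were higher and 7.91% lower at that p. Adjusted p in limma lay between 0.387 and 0.964. Of the 9 differences 4 were positive and 5 negative, with a median of −0.014, against a median of 0.0077 over all genes. The median size of the difference without its sign was 0.049 for the 9 genes and 0.097 for all genes. All 9 genes had means above the array medians, and the 95% confidence intervals of the 9 ratios, arrays labelled Myc knockout over control, lay between 0.791 and 1.42. This bounds the mRNA differences but does not show that the groups were alike, and mRNA says nothing of the proteins' location or turnover.

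**Figure D1:**
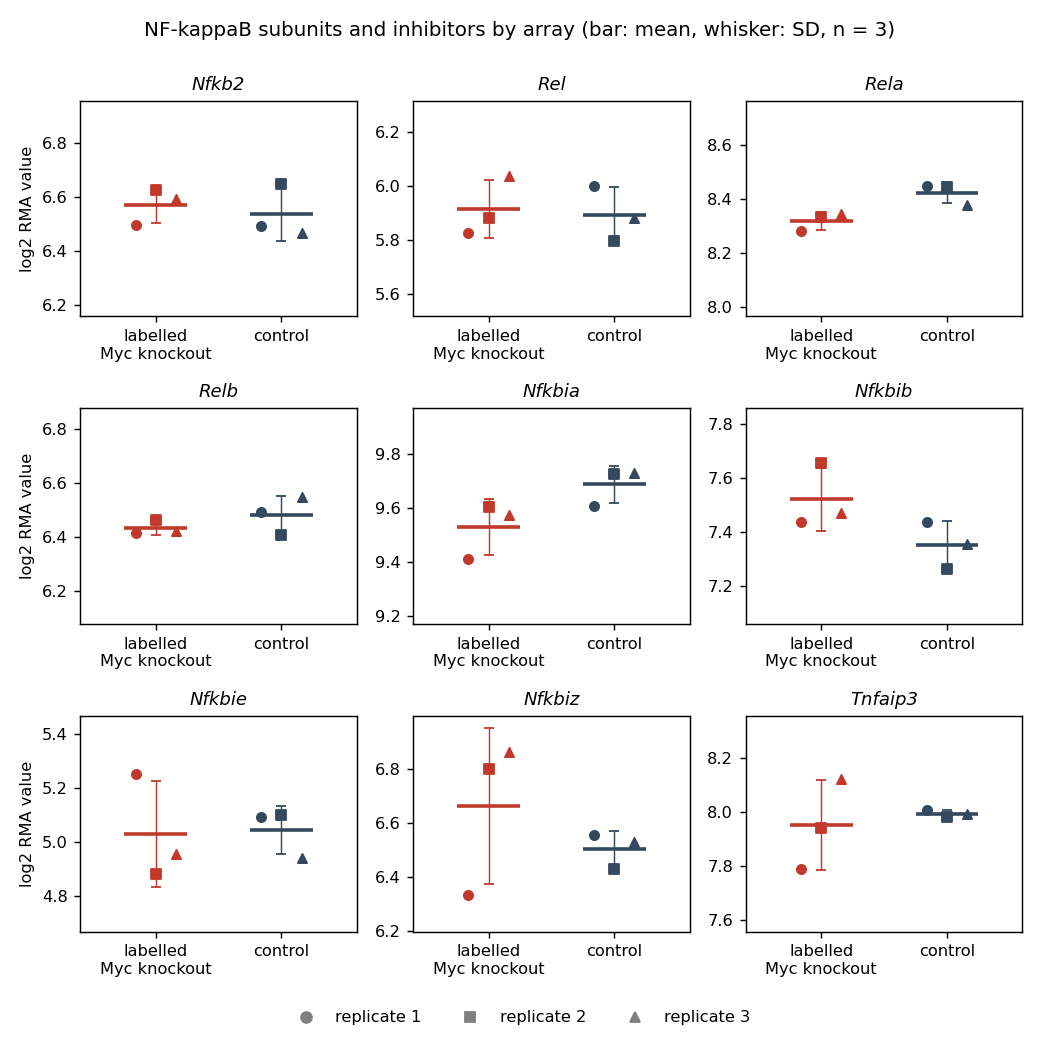
Log2 RMA values of the 9 NF-kappaB genes on each array, with arrays labelled Myc knockout on the left and controls on the right of each panel; horizontal bars are means, whiskers SDs (n = 3), and marker shapes the replicate numbers. All panels span the same height on the log2 scale, and only Rela and Nfkbia have groups that do not overlap.

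Rela encodes p65, the subunit with a transactivation domain that forms the classical dimer with p50. It had 8.28, 8.33 and 8.34 in the arrays labelled Myc knockout, against 8.45, 8.44 and 8.38 in controls. All 3 values labelled Myc knockout lay below all 3 control values. The difference of −0.10 ± 0.055 was a ratio of 0.930 (95% confidence interval 0.849 to 1.02) and did not pass (limma's adjusted p = 0.425). At this SE a difference of 0.40 would have been needed to pass. Rela and Nfkbia were the 2 of 9 genes whose groups did not overlap, both lower in the arrays labelled Myc knockout. Of all genes, 10.6% were lower and 9.25% higher without overlap.

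Rel encodes c-Rel, a lymphocyte subunit that is also a transactivator. Its values were 5.83, 5.88 and 6.03 in the arrays labelled Myc knockout and 6.00, 5.79 and 5.88 in controls. The groups overlapped, with a difference of 0.022 ± 0.084 (95% confidence interval −0.18 to 0.22). The sign of this small difference turned under median centring, to −0.0021.

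Nfkb2 and Relb encode the pair of subunits of the noncanonical pathway, p100, which is processed to p52, and RelB. Nfkb2 had 6.49, 6.63 and 6.59 in the arrays labelled Myc knockout, against 6.49, 6.65 and 6.47 in controls (0.036 ± 0.073). Relb had 6.42, 6.46 and 6.42 in the arrays labelled Myc knockout, against 6.49, 6.41 and 6.55 in controls (−0.049 ± 0.060). Both genes had overlapping groups, and limma's adjusted p was 0.845 for Nfkb2 and 0.734 for Relb. Map3k14, which encodes NIK, the kinase that starts p100 processing, had 4.80, 4.60 and 4.72 in the arrays labelled Myc knockout, against 4.59, 4.41 and 4.32 in controls. All 3 values labelled Myc knockout lay above the controls, by 0.27 ± 0.091, without passing (limma's adjusted p = 0.261).

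Nfkbia encodes IkappaB-alpha, the inhibitor that is degraded first and made anew by NF-kappaB itself. It had 9.41, 9.61 and 9.58 in the arrays labelled Myc knockout, against 9.61, 9.73 and 9.73 in controls. The highest value labelled Myc knockout lay only just below the lowest control. The difference of −0.16 ± 0.075 was a ratio of 0.897 (95% confidence interval 0.791 to 1.02), with limma's adjusted p = 0.387, the smallest among the 9 genes. It was −0.098 once replicate 1 carrying the Myc knockout label was left out.

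Nfkbib and Nfkbie encode IkappaB-beta and IkappaB-epsilon, which act more slowly than IkappaB-alpha. Nfkbib had 7.44, 7.66 and 7.47 in the arrays labelled Myc knockout, against 7.44, 7.26 and 7.36 in controls. Its 0.17 ± 0.083 was the largest of the 9 differences in size, and 27.4% of all genes had a larger one. It did not pass (limma's adjusted p = 0.396), and the groups met at the lowest array labelled Myc knockout and the highest control. Nfkbie had 5.25, 4.88 and 4.95 in the arrays labelled Myc knockout, against 5.09, 5.10 and 4.94 in controls. Its groups overlapped, with a difference of −0.014 ± 0.11 whose sign turned under cyclic loess scaling (0.032).

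Nfkbiz encodes IkappaB-zeta, an atypical nuclear member of the IkappaB family that acts with NF-kappaB on secondary response genes rather than holding it in the cytoplasm. It had 6.33, 6.80 and 6.86 in the arrays labelled Myc knockout, against 6.55, 6.43 and 6.53 in controls. In the arrays labelled Myc knockout, 1 value lay below every control and 2 lay above, so the SD was 0.290, against 0.0653 in controls. The difference was 0.16 ± 0.14 (95% confidence interval −0.18 to 0.50), and 0.33 once replicate 1 carrying the Myc knockout label was left out (limma's adjusted p = 0.630 and 0.173).

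Tnfaip3 encodes A20, the ubiquitin-editing enzyme that ends signalling upstream of the IkappaB kinases. It had 7.79, 7.94 and 8.12 in the arrays labelled Myc knockout, against 8.01, 7.98 and 7.99 in controls. The controls lay within a narrow band (SD 0.0144) inside the spread of the arrays labelled Myc knockout (SD 0.167). The difference of −0.043 ± 0.091 became 0.038 with replicate 1 of that label left out. Replicate 1 was the lowest of the arrays labelled Myc knockout for 8 of the 9 genes, all but Nfkbie, where it was the highest. Over all genes that array was the lowest of its group for 32.6%, and for 39.2% of genes at or above the median level, and for 25 of the 48 pathway genes described below. The part of this array in the differences is shown by the values without it, given above for Nfkbia, Nfkbiz and Tnfaip3. For the other 6 genes the differences without it were 0.075 for Nfkb2, 0.066 for Rel, −0.085 for Rela, −0.040 for Relb, 0.21 for Nfkbib and −0.13 for Nfkbie, and none passed.

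**Figure D2:**
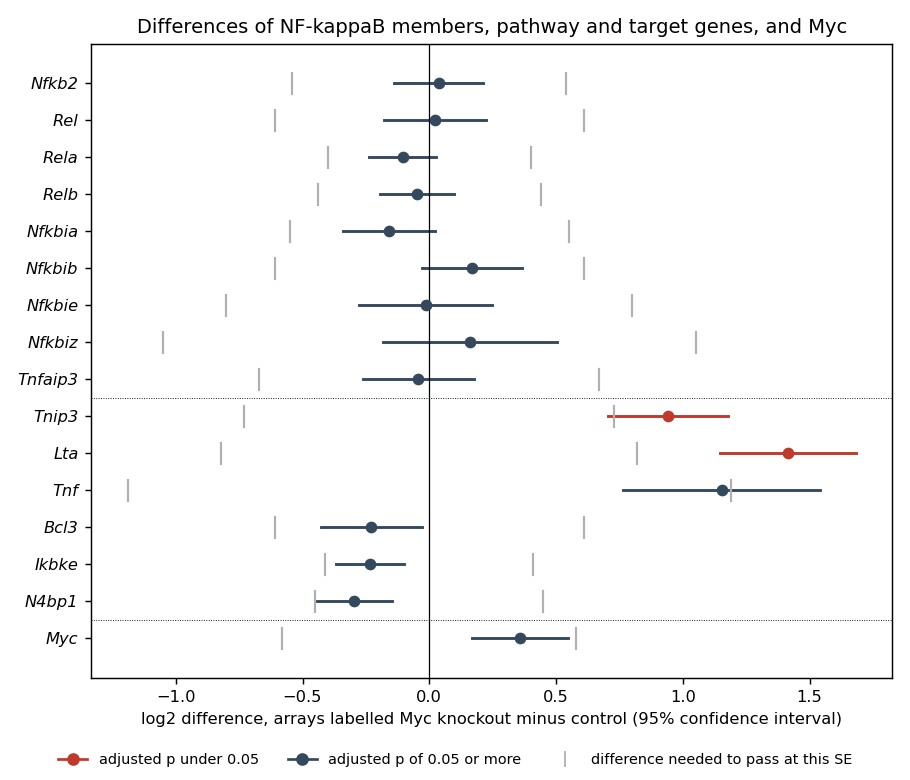
Differences on the log2 scale (arrays labelled Myc knockout minus control) with 95% confidence intervals for the 9 NF-kappaB genes (top), 6 pathway and target genes (middle) and Myc (bottom); grey ticks mark the size of difference that each gene would have needed to pass at its SE. The intervals of all 9 NF-kappaB genes cross 0, and Tnip3 and Lta lie beyond their ticks.

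The profile most like that of Nfkbib, the member with the largest difference in size, was looked for among all genes by the root mean square distance between values centred on their 6-array mean. The nearest were Glyat, Cd209g and D630045J12Rik, at distances of 0.0221, 0.0251 and 0.0253 on the log2 scale over 6 arrays. None of these 3 passed the test, and Glyat and Cd209g had means near the lower quartiles of the arrays, which lay between 2.05 and 2.13.

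Among the other genes of the pathway, Tnip3 rose. Tnip3 encodes ABIN-3, of a family of proteins known for binding A20, the product of Tnfaip3. It had 6.42, 6.59 and 6.50 in the arrays labelled Myc knockout, against 5.70, 5.38 and 5.61 in controls. All 3 arrays labelled Myc knockout lay well above the controls, a 1.92-fold difference (log2 0.94 ± 0.099, 95% confidence interval 0.70 to 1.18, limma's adjusted p = 0.0270). This call was lost when any 1 array was left out, with differences of 0.85 to 1.01 and adjusted p of 0.0958 to 0.158 in limma, and with a replicate block (adjusted p = 0.143). Of the other ABIN genes, Tnip1 differed by 0.043 ± 0.066 and Tnip2 by −0.069 ± 0.081; neither passed, and the difference from Tnip3 was not tested.

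Of 54 listed pathway genes outside the 10, 48 were measured, 1 rose and 0 fell, and 6 were not analysed here. Of the 48 differences 29 were negative, with a median of −0.054, against 47.8% negative over all genes. In limma 3 were higher and 12 were lower at an unadjusted p under 0.05, against 6.97% and 7.91% of all genes. Over the 11593 genes at or above the median level, fitted alone, 992 were higher and 1795 lower at that p. Groups did not overlap for 4 higher and 14 lower of the 48 genes, against 9.25% and 10.6% of all genes.

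No kinase gene of the pathway passed. Of 10 measured kinase and kinase-adaptor genes, 0 passed over all genes, at an unadjusted p under 0.05 in limma Map3k14 was higher and 4 genes were lower, against 6.97% and 7.91% of all genes. Of these 4, all but Tab1 were named after their values were seen: Ikbkb and Ikbkg encode a catalytic and the regulatory subunit of the IkappaB kinase complex, Ikbke a related kinase, and Tab1 a partner of the kinase TAK1 above it. Ikbke had 4.85, 4.85 and 4.87 in the arrays labelled Myc knockout, against 5.13, 5.03 and 5.12 in controls, a difference of −0.23 ± 0.056 (limma's adjusted p = 0.148). Ikbkb differed by −0.24 ± 0.096, Ikbkg by −0.20 ± 0.075 and Tab1 by −0.35 ± 0.115, each with all 3 arrays labelled Myc knockout below the controls. Tbk1, Map3k7 and Tab2 had overlapping groups, with differences of −0.094, −0.060 and 0.00032.

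No measured co-receptor or adaptor gene of IL-33 signalling passed. Of 15 listed genes, 3 were not analysed here, and of the receptor itself the measured genes hold only the co-receptor gene Il1rap. Of the 12 measured, 0 passed, and 6 differences were positive and 6 negative. At an unadjusted p under 0.05 in limma 1, Traf2, was lower (−0.19 ± 0.073). That is 8.33% of this list, against 7.91% of all genes. Irak2, a kinase of the MyD88 complex, had the largest negative difference, −0.23 ± 0.096. Ube2v1, which encodes a ubiquitin-conjugating partner, had the largest positive one, 0.17 ± 0.34, with values between 2.34 and 3.48 that lie near or below the array medians and cannot show a lack of change. Myd88 itself had 7.40, 7.42 and 7.52 in the arrays labelled Myc knockout, against 7.52, 7.48 and 7.49 in controls, and Il1rap, the co-receptor gene, differed by 0.067 ± 0.084.

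Regulators that act beside the 9 genes were mixed. Bcl3 encodes an atypical IkappaB that works with p50 and p52 in the nucleus, and Nfkbid encodes IkappaB-NS, also nuclear. Bcl3 had 8.45, 8.58 and 8.46 in the arrays labelled Myc knockout, against 8.87, 8.62 and 8.70 in controls (−0.23 ± 0.083, limma's adjusted p = 0.284). Nfkbid had 6.36, 6.76 and 6.52 in the arrays labelled Myc knockout, against 6.28, 6.22 and 6.34 in controls (0.26 ± 0.11, limma's adjusted p = 0.319). Bcl3 and Nfkbid were named as the largest negative and the largest positive difference of this list, so their opposite signs follow from that choice. Neither passed, and neither had overlapping groups. Groups did not overlap for 1 higher and 2 lower genes of this list, against 9.25% and 10.6% of all genes. Of the 8 genes in this list 0 passed, and in limma 1 was higher and 2 were lower at an unadjusted p under 0.05, against 6.97% and 7.91% of all genes.

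Of 15 ubiquitin-editing and linear ubiquitin genes, Tnip3 was the 1 that passed, against 0.453% of all genes. In limma 4 of the 15 were lower at an unadjusted p under 0.05, against 7.91% of all genes. N4bp1, which encodes a suppressor of NF-kappaB signalling, had 5.69, 5.67 and 5.55 in the arrays labelled Myc knockout, against 5.96, 5.94 and 5.90 in controls (−0.30 ± 0.062, limma's adjusted p = 0.112). The others were Rbck1 and Sharpin, which encode HOIL-1 and SHARPIN of the linear ubiquitin ligase, at −0.17 ± 0.066 and −0.20 ± 0.079, and Zc3h12a, which encodes the ribonuclease Regnase-1, at −0.16 ± 0.064. Rnf31, which encodes the catalytic subunit of the same ligase, differed by 0.029 ± 0.098 with overlapping groups.

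**Figure D3:**
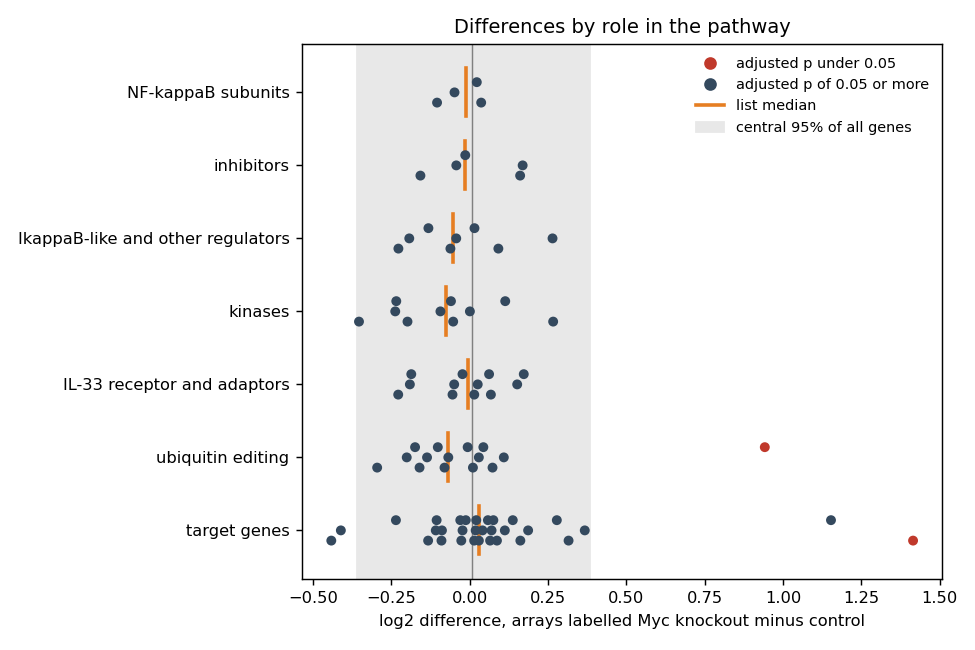
Differences on the log2 scale (arrays labelled Myc knockout minus control) for the measured genes of the lists described, by role; orange bars are list medians, the grey band holds the central 95% of all genes (−0.36 to 0.38), and red points passed the test. The subunit and inhibitor genes all lie inside the band, while Tnip3 among the ubiquitin-editing genes, and Tnf and Lta among the targets, lie far to its right, and the targets Birc2 and Gadd45b lie to its left.

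Among genes known as NF-kappaB targets, Lta rose. Of 31 measured targets 1 rose, 0 fell, and 19 differences were positive and 12 negative, with a median of 0.029. In limma 4 were higher and 3 were lower at an unadjusted p under 0.05, which is 12.9% and 9.68% of the targets, against 6.97% and 7.91% of all genes. Of the 31, 12 had means below the highest array median, among them Il6, Il1b, Csf2, Ptgs2 and Nos2, and cannot show a lack of change.

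Lta, the gene of the secreted cytokine lymphotoxin alpha, had 7.16, 7.14 and 7.24 in the arrays labelled Myc knockout, against 5.95, 5.82 and 5.53 in controls. It rose 2.67-fold, a log2 difference of 1.42 ± 0.11 (limma's adjusted p = 0.0162), and its call too was lost with any 1 array left out (adjusted p of 0.0674 to 0.117 in limma) or with a replicate block (0.114). Tnf, its neighbour in the TNF family, named after its values were seen, had 7.71, 8.23 and 8.24 in the arrays labelled Myc knockout, against 7.07, 6.87 and 6.78 in controls. The groups did not overlap, and the 2.22-fold difference (95% confidence interval 1.70 to 2.91) fell just short of the threshold with limma's adjusted p = 0.0518. It passed in 6 of 15 alternative fits, median centring and cyclic loess among them. Neither gene's promoter of 300 bases held a match to the kappaB motif, which says only that these letters are not in that window.

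The remaining targets whose groups did not overlap, all but Birc2 named after their values were seen, lay on both sides of 0. Sod2, the mitochondrial superoxide dismutase gene, was at 0.28 ± 0.083 and Tnfrsf9, the gene of the costimulatory receptor 4-1BB, at 0.19 ± 0.054. Gadd45b, a stress response gene, was at −0.41 ± 0.085, Birc2, which encodes the ubiquitin ligase cIAP1, at −0.44 ± 0.12, and Ebi3, a cytokine subunit gene, at −0.24 ± 0.058. None of these 5 passed, with limma's adjusted p between 0.111 and 0.214, but Tnfrsf9 passed with an intensity trend and Gadd45b among genes at or above the median level. Some further targets, also named after their values were seen, had overlapping groups and did not pass. Birc3 differed by −0.023 ± 0.068, Traf1 by 0.058 ± 0.069, Icam1 by −0.027 ± 0.074 and Bcl2l1 by 0.087 ± 0.066. Larger differences with overlapping groups were those of Cxcl2 (0.37 ± 0.15), Ccl3 (0.32 ± 0.26), Bcl2a1b (0.16 ± 0.225), Ccl4 (0.14 ± 0.139) and Irf1 (−0.13 ± 0.093). Over all 31 targets the median size of the difference without its sign was 0.090, against 0.097 over all genes. Groups did not overlap for 4 higher and 3 lower of the 31 targets, against 9.25% and 10.6% of all genes.

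**Figure D4:**
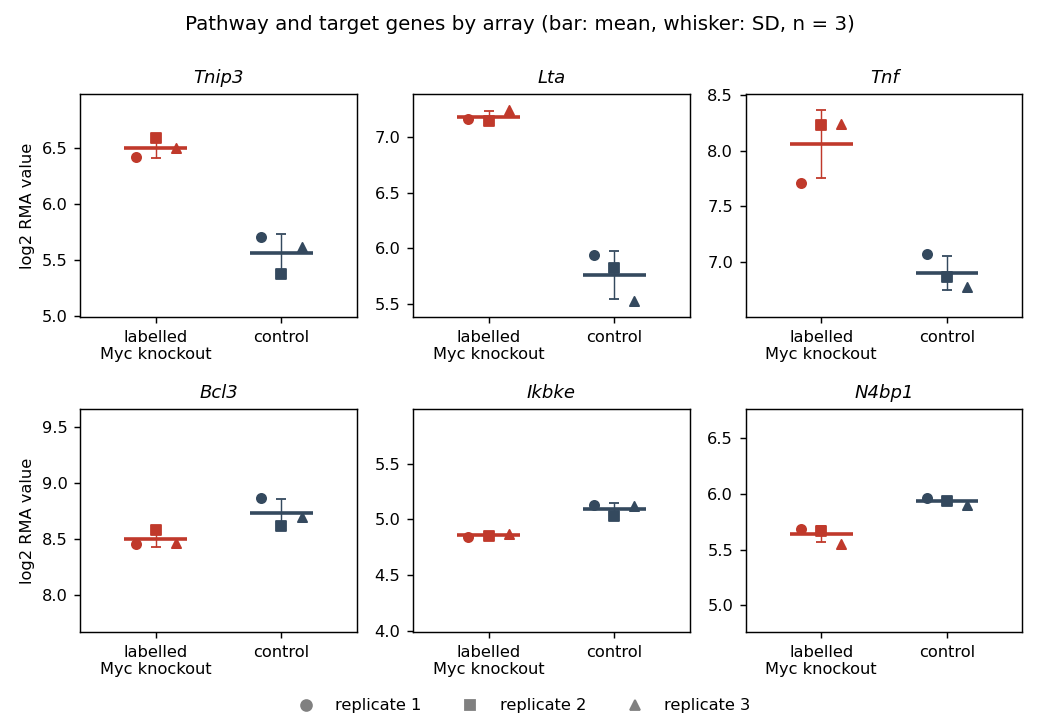
Log2 RMA values on each array for Tnip3, Lta and Tnf (top) and Bcl3, Ikbke and N4bp1 (bottom), with arrays labelled Myc knockout left of controls; bars are means, whiskers SDs (n = 3), marker shapes replicate numbers, and every panel spans the same height. The groups do not overlap in any of the 6 panels, and of these genes Tnip3 and Lta passed the test.

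The differences of the 9 genes were also compared under the other settings. Under each of the 15 alternative fits, 0 of the 9 passed, and the smallest adjusted p among them was 0.173 in limma, for Nfkbiz with replicate 1 of the Myc knockout label left out. The differences of Rela and Nfkbia were negative and those of Nfkbib and Nfkbiz positive in each of these fits, Rela from −0.13 to −0.085, Nfkbia from −0.20 to −0.098, Nfkbib from 0.10 to 0.21 and Nfkbiz from 0.062 to 0.33. Nfkb2 stayed positive and Relb negative in all of them. Rel, Nfkbie and Tnfaip3 changed sign in at least 1 fit.

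**Figure D5:**
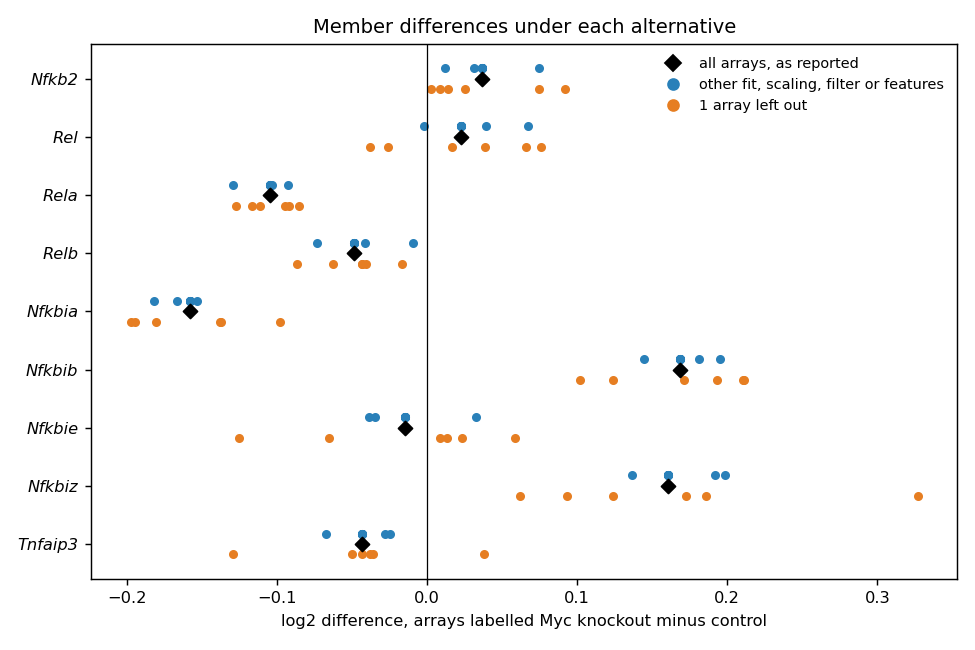
Differences on the log2 scale (arrays labelled Myc knockout minus control) of the 9 NF-kappaB genes with all arrays (black diamonds), under another fit, scaling, filter or set of features (blue) and with 1 array left out (orange). Points of Rel, Nfkbie and Tnfaip3 fall on both sides of 0, and the orange points of Nfkbiz spread most widely, from 0.062 to 0.33.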

How the data were processed

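Total RNA of 6 samples was measured on Affymetrix arrays, 3 per group, with groups taken from the sample titles. The deposited log2 values were made by the authors with RMA, per the submitters' processing notes, which also name limma 3.14.4. RMA corrects background, brings arrays to a common distribution and summarises each probe set, so a shift shared by all transcripts is removed. The sources used here give neither the genome build nor the probe set definition. Of 25206 probe sets, 23185 had 1 gene symbol in the platform annotation and were tested without a filter. The other 2021 did not have a single symbol and are unnamed here. Arrays have no read depth, and their number limits the precision.

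Differences were fitted across all 23185 genes in R 4.3.3 with limma 3.58.1 (lmFit, eBayes, no covariate), two-sided, with Benjamini-Hochberg adjustment. In 10 simulated sets of 23185 genes for this comparison, the fit recovered 34.5% of genes changed by 0.5 on the log2 scale and 85.5% of those changed by 1, and 4.79% of calls were false. These sets had independent normal noise for each gene, with variances drawn from the prior that limma fitted to these data. They held no shared array effect, no correlation of genes and no variance that changes with level. A false share near the threshold was therefore built in, and the rates may not hold for the real arrays. The difference needed to pass is that which, at a gene's SE, gives the largest p of any call. Promoter sequences came from RefSeq, and figures were drawn with matplotlib 3.10.9.

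The NF-kappaB genes, the pathway, target and marker lists, and the alternatives were chosen with earlier results of these data known. The text names, by rule, the 9 genes and Myc, every pathway or target gene that passed, the largest positive and negative difference of each such list, and the 3 profiles nearest to the member with the largest difference; further genes were named after their values were seen. A small pathway list enters the pathway counts and is not reported here on its own. Alternatives left out each array, added array weights or a replicate block, used a trended or robust prior variance, rescaled by cyclic loess or median centring, dropped dim genes, kept all probe sets, or set the threshold at 0.01.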

Additional observations from a re-analysis of the deposited data

How the results depend on the processing

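No NF-kappaB gene passed under any alternative run. Without 1 array, Rel ranged from −0.038 to 0.076, Nfkbie from −0.13 to 0.059 and Tnfaip3 from −0.13 to 0.038; Rel was −0.0021 under median centring and Nfkbie 0.032 under cyclic loess, and the cause was not tested. The number of NF-kappaB genes with groups apart was 2 to 4 without 1 array, 4 with control replicate 2, or replicate 1 of the Myc knockout label, left out. The share of all genes was not counted without 1 array. Groups with fewer arrays come apart more readily, so these counts show nothing particular to the NF-kappaB genes. Over all genes, limma called 105; 370 with an intensity trend, 192 at or above the lower quartile of levels, 549 at or above the median, 0 at an adjusted p under 0.01, 0 with the replicate block and 0 to 2 without 1 array. At an unadjusted p under 0.05 the block gave 1486 higher and 1560 lower. Pathway calls, 1 with all arrays, were 2 at or above the median (N4bp1 added) and 0 with the block, at 0.01 and without any 1 array. Target calls, 1 with all arrays, were 3 with an intensity trend (Tnf and Tnfrsf9 added) and at or above the median (Tnf and Gadd45b added), 2 with array weights, median centring, cyclic loess and at or above the lower quartile, and 0 with the block, at 0.01 and without any 1 array. Myc passed at or above the median (0.36, limma's adjusted p = 0.0487). The labels do not say whether the replicate numbers pair the arrays. Deviations of same-numbered arrays from their group means correlated at −0.070, −0.012 and −0.018, and no array correlated best with its own number. With 3 arrays per group such correlations cannot show whether the arrays were paired.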
